A study of Rattus norvegicus with 6 samples.

Results

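The genes described here encode the subunits of potassium, sodium and calcium channels and of the related HCN channels, in rat flat pluripotent stem (fPS) cells and in ES (embryonic stem) cells of the rat. A gene belonged to the set if the platform's annotation gave a probe set that 1 symbol, beginning with Kcn, Cacn, or with Scn or Hcn followed by a digit. In all, 114 genes of 14217 met this rule, through 181 probe sets, and the probe set of highest mean over the 6 arrays stood for each gene. The samples were 3 of fPS cells and 3 of ES cells from Sprague-Dawley rats, 1 Affymetrix array each. Both groups share 1 set of protocols in the labels: a medium with human LIF, the GSK3 inhibitor CHIR99021 and the MEK inhibitor PD0325901, and maintenance on mouse embryonic fibroblasts treated with mitomycin C, in a medium with serum. The labels do not name cell lines or clones, nor say whether the 3 samples of a group were separate cultures, so p-values rest on a spread between samples that could be technical. In 1 label field, the description, the fPS samples too are called embryonic stem cells.

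Ion channels are pores in the membrane that let chosen ions pass. Potassium channels set and restore the resting potential of a cell. Voltage-gated sodium channels carry the fast upstroke of the action potential, and voltage-gated calcium channels turn a depolarisation into calcium entry. HCN channels open on hyperpolarisation and carry the pacemaker current. Most of these genes are best known from neurons, heart and muscle, while potassium channels are also found in cells that fire no action potentials. A pore-forming alpha subunit makes the channel, and accessory subunits alter its traffic and gating.

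The signal of these genes was low in both cell types, and no gene of the set passed the test between fPS and ES cells. Only 9 of the 114 genes (7.89%) lay above the array's median on all 6 arrays, against 55% of all 14217 genes. The median is over all 31042 probe sets of an array that are not controls, and it was 45.3, 39.8 and 36.2 on the fPS arrays and 37.6, 38.7 and 37.7 on the ES arrays. It is the bound of the rule and not a test of presence, and a probe set below it does not show that a transcript is missing. The 9 genes were Kcns3, Kcnk6, Kcne4, Kcnh3, Cacnb1, Hcn2, Kcnd1, Cacng2 and Kcnmb4. A further 4 genes (3.51%) were above it on all 3 fPS arrays and not on all ES arrays, against 3.78% of all genes. These were Kcnj11, Kcnt1, Kcnj4 and Kcnj6. The reverse, above it on all ES arrays and not on all fPS arrays, held for 2 genes (1.75%), Kcnj14 and Kcng3, against 3.43% of all genes. At or below the median on all 6 arrays were 73 genes (64%), against 26.5% of all genes. Above the 75th percentile on all 6 arrays were 0 of 114, against 31.4%. The highest place of any channel gene was the 79.9th percentile, reached by Kcns3 on ES replicate 2.

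**Figure D1:**
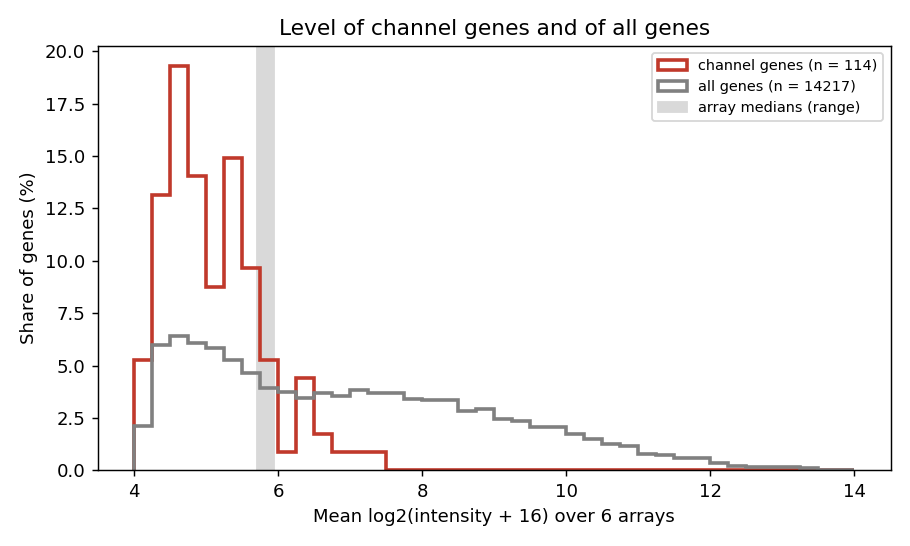
Share of genes (%) by mean log2(intensity + 16) over the 6 arrays, for the 114 channel genes and for all 14217 genes, with the range of the array medians as a grey band. The channel genes have a median of 4.96, left of the band, and all genes a median of 6.68.

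The promoters of 4 members are shown because they carry the sequence features described here. Kcns3 is the brightest gene of the set and Kcng3 the one with the lowest p, and both lie on chromosome 6. Kcnh6 and Cacng3, at or below the median on all 6 arrays, hold letters of the RE1 element, which binds REST, a repressor of neuronal genes outside the nervous system. The windows run from 250 bases before to 50 bases after the start of the RefSeq gene, in build GRCr8. The strand is that of the gene, and the letters read 5′ to 3′. Kcns3 is at chr6:39584056-39584355 on the minus strand, Kcng3 at chr6:16803592-16803891, Kcnh6 at chr10:91449401-91449700 and Cacng3 at chr1:186632312-186632611, the last 3 on the plus strand. Capitals mark CpG in the first pair.
Kcns3: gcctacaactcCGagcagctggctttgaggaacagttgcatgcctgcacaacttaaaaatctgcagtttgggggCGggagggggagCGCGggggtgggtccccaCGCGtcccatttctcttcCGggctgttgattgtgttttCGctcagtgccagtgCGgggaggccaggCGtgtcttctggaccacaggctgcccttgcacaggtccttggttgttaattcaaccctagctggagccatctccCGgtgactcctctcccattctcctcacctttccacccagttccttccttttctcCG
Kcng3: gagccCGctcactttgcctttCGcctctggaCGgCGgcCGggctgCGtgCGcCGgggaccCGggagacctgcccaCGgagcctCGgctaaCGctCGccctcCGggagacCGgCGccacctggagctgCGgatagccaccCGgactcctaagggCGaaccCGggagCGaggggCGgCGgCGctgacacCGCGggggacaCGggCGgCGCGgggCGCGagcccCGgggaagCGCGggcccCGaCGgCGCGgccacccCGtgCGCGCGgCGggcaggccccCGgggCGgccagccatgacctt
In the second pair they mark matches to the left element TTCAGCACC and the right element GGACAGCNC, N being any base, on either strand.
Kcnh6: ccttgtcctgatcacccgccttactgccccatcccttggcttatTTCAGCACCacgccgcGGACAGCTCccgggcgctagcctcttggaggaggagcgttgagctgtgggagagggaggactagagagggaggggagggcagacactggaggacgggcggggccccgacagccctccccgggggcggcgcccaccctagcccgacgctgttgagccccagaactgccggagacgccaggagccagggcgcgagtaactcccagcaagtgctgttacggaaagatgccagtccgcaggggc
Cacng3: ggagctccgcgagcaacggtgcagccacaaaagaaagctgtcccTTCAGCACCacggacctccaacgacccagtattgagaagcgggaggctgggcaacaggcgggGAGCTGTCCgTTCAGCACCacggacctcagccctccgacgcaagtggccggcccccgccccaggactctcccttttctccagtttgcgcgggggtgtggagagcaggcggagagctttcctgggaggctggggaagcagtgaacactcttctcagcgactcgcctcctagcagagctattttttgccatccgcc

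CpG-rich promoters are common in genes that many cell types use. The Kcns3 window holds 12 CpG and the Kcng3 window 46. Over the 79 channel genes with a window in the RefSeq table the median was 15, against 19 over 11700 measured genes with one. Among all genes at or below the array median on 6 arrays the median was 8 CpG (2959 windows), whereas the channel genes at or below it had a median of 14 (49 windows). For the genes above it on all 6 arrays, the median was 12 over 5 windows of channel genes and 22 over 6639 windows of all genes. The dim channel genes thus had more CpG in these windows than dim genes at large, with no test made.

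The left RE1 element was found in 2 of the 79 windows (2.53%), against 0.479% of measured genes and 0.379% of all 27457 windows in the table. The right element was found in 4 (5.06%), against 2.5% and 1.81%. Kcnh6 holds the left and then the right element on the same strand with 7 bases between them. Cacng3 holds the left element at 2 places and the right element on the opposite strand, while Kcnd3 and Kcna2 hold the right element alone. All 4 genes were at or below the array median on all 6 arrays, as were 49 of the 79 channel genes with a window. A link between these letters and the signal was not tested. These counts are small, and a match is no evidence of binding. Rest itself had 2 probe sets, and the other one is not reported here. The one of higher mean had 17.8, 32.3 and 34.4 in fPS cells and 16.9, 25.6 and 30.9 in ES cells, below the array median on all 6 arrays.

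Voltage-gated potassium channel alpha subunits were the largest group, with 31 genes, of which 3 were above the median on all 6 arrays and 22 on none. Kcns3, a silent subunit that forms no channel alone and modifies channels of the Kcnb family, had intensities of 128, 122 and 111 in fPS cells, against 177, 212 and 237 in ES cells. All 3 fPS arrays lay below all 3 ES arrays. The log2 change, fPS minus ES, was -0.72 (SE 0.205, 95% interval -1.18 to -0.25), which did not pass limma's test over all probe sets (adjusted p = 0.146). Kcng3, another silent modifier subunit, had 25.9, 32.5 and 21.3 in fPS cells and 64.1, 43.1 and 71.8 in ES cells. Its groups did not overlap either, and it had the largest log2 change of the set in size, -0.82 (SE 0.232, limma adjusted p = 0.144). Kcnh3, a member of the EAG family found mainly in the brain, was the steadiest of the brighter genes. It had 90.8, 85.3 and 92.3 in fPS cells and 91.7, 90.4 and 95.8 in ES cells. Its log2 change of -0.04 had a 95% interval of -0.47 to 0.38.

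Kcnd1, an alpha subunit of the A-type current, had 64.8, 69.8 and 45.6 in fPS cells and 77.2, 76.1 and 102 in ES cells. Here too the fPS values lay below the ES values, with a log2 change of -0.42 (SE 0.226, limma adjusted p = 0.437). Kcna2 and Kcna6, delayed rectifiers of the Shaker family, had the opposite direction at levels below the median. Kcna2 had 22.0, 20.3 and 24.1 in fPS cells and 4.91, 9.91 and 12.3 in ES cells. Kcna6 had 40.6, 31.2 and 28.5 in fPS cells and 22.4, 20.5 and 17.005 in ES cells. Neither passed (limma adjusted p = 0.202 and 0.336). At the other end, Kcnh6 had between 1.81 and 4.51 on the 6 arrays, near the bottom of the scale.

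Of 15 inward rectifier genes, which pass potassium more easily into the cell than out, 0 were above the median on all 6 arrays and 8 were above it on none. Kcnj11, the pore of the ATP-sensitive potassium channel, had 88.5, 68.3 and 69.2 in fPS cells and 50.0, 74.5 and 30.8 in ES cells, and the groups overlapped. It had 3 probe sets. A dimmer one had 44.5, 31.2 and 41.9 in fPS cells and 11.3, 3.07 and 17.3 in ES cells, with no overlap. That probe set had a log2 change of 1.08 (SE 0.256) and the lowest adjusted p of all 181 (limma, 0.0928), while the brighter one had 0.47 (SE 0.272). Kcnj14 had 37.2, 38.8 and 30.1 in fPS cells and 65.1, 48.6 and 88.7 in ES cells, all lower in fPS cells, with a log2 change of -0.68 (SE 0.237, limma adjusted p = 0.218). Kcnj8, the other pore of ATP-sensitive channels, had 48.6, 34.3 and 19.0 in fPS cells and 18.2, 18.5 and 7.05 in ES cells, a log2 change of 0.69 (SE 0.286, limma adjusted p = 0.295). Kcnj4, a strong rectifier, had 70.9, 48.8 and 39.9 in fPS cells and 34.6, 64.2 and 30.4 in ES cells, with overlap.

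The 11 tandem-pore (K2P) genes encode leak channels that hold the resting potential. Kcnk6 was the one of them above the median on all 6 arrays, and 7 were above it on none. It had 99.0, 81.8 and 88.9 in fPS cells and 166, 129 and 145 in ES cells. Every fPS array lay below every ES array, with a log2 change of -0.62 (SE 0.202, 95% interval -1.08 to -0.16, limma adjusted p = 0.192). A second probe set of Kcnk6, also above the median on all 6 arrays, had 98.6, 59.6 and 63.5 in fPS cells and 112.7, 54.5 and 58.9 in ES cells. Its groups overlapped and its log2 change was 0.01 (SE 0.294, limma adjusted p = 0.983), so the 2 probe sets of this gene disagree. Kcnk9, an acid-sensitive leak channel, had 52.2, 33.7 and 45.1 in fPS cells and 43.7, 24.9 and 6.72 in ES cells, and Kcnk1 had 26.7, 34.1 and 24.5 in fPS cells and 20.8, 37.2 and 33.5 in ES cells. Both overlapped between the groups. Kcnk4, a mechanosensitive channel, had 26.2, 17.5 and 13.7 in fPS cells and 2.00, 9.21 and 11.1 in ES cells, without overlap (log2 change 0.59, SE 0.245, limma adjusted p = 0.295).

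Among the 5 genes of calcium- or sodium-activated potassium channels, Kcnt1, which sodium opens, was brightest. It had 55.6, 45.9 and 43.9 in fPS cells and 29.7, 61.3 and 51.5 in ES cells. The other 4 were at or below the median on all 6 arrays. Kcnma1, the pore of the large-conductance BK channel, had 6.28, 2.48 and 12.1 in fPS cells and 1.53, 25.3 and 8.58 in ES cells, and Kcnn4, the intermediate-conductance channel of blood cells and epithelia, had 1.35, 19.5 and 20.4 in fPS cells and 7.54, 15.4 and 4.28 in ES cells. Values within a group spread over more than the gap between the groups.

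Potassium accessory subunits numbered 13, with 2 above the median on all 6 arrays and 8 on none. Kcne4, a single-span subunit that inhibits several potassium channels, had 79.2, 98.0 and 136 in fPS cells and 63.5, 112 and 96.4 in ES cells. Kcnmb4, the beta subunit of BK channels in the brain, had 72.4, 58.9 and 78.7 in fPS cells and 59.4, 56.0 and 42.2 in ES cells, while its pore gene Kcnma1 stayed below the median. Kcne3, a subunit of epithelial channels with Kcnq1, had 16.6, 30.9 and 29.0 in fPS cells and 10.2, 8.85 and 6.43 in ES cells. It was higher on every fPS array, with a log2 change of 0.75 (SE 0.222, 95% interval 0.24 to 1.25, limma adjusted p = 0.161). Kcnab3, a cytoplasmic beta subunit, had 18.6, 24.5 and 21.2 in fPS cells and 61.1, 30.8 and 43.7 in ES cells, a log2 change of -0.68 (SE 0.238, limma adjusted p = 0.216).

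**Figure D2:**
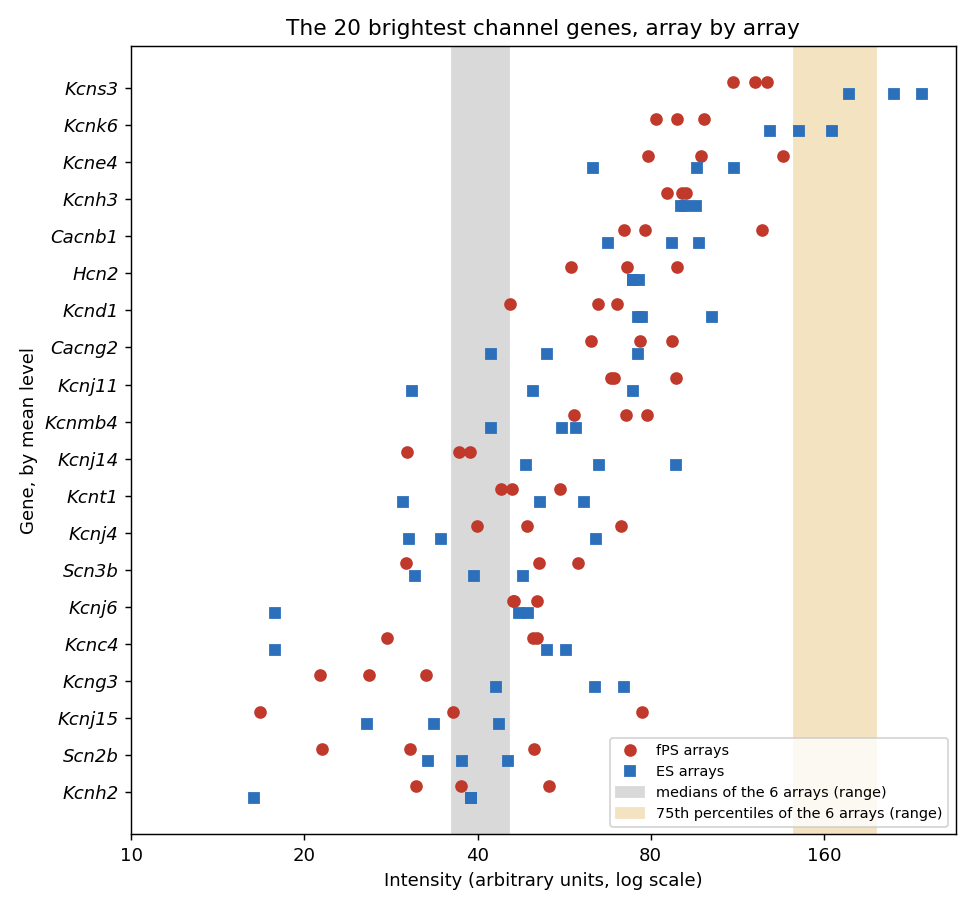
Intensity (arbitrary units, log scale) on each array of the 20 channel genes with the highest mean, fPS arrays as circles above ES arrays as squares. The grey band spans the 6 array medians and the tan band the 75th percentiles. Kcns3, Kcnk6, Kcnd1, Kcnj14 and Kcng3 have every fPS value left of every ES value, and Kcnh3 lies between 85.3 and 95.8 on all 6 arrays. The second probe set of Kcnk6, not drawn, had overlapping groups.

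No sodium channel gene was above the median on all 6 arrays. Of 9 alpha subunits, 6 were above it on none. Scn9a, an alpha subunit of sensory and sympathetic neurons, had 52.9, 16.4 and 8.79 in fPS cells and 47.0, 50.0 and 22.2 in ES cells. Scn11a, of pain-sensing neurons, had 14.7, 6.89 and 13.5 in fPS cells and 67.1, 16.7 and 22.9 in ES cells. The fPS values lay below the ES values, with ES replicate 1 far above the other ES arrays, and the log2 change was -0.78 (SE 0.348, limma adjusted p = 0.331). Of 3 beta subunits, which are adhesion proteins that tune the alpha subunits, Scn3b had 51.1, 59.9 and 30.02 in fPS cells and 39.5, 47.9 and 31.1 in ES cells, above the median on 4 arrays, with overlap.

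Among calcium channel genes 2 were above the median on all 6 arrays, and neither is a pore. Cacnb1, a cytoplasmic beta subunit best known from skeletal muscle, had 125, 71.9 and 78.2 in fPS cells and 87.2, 97.1 and 67.4 in ES cells. Cacng2 (stargazin), a partner of calcium channels and AMPA receptors, had 63.0, 87.2 and 76.6 in fPS cells and 52.8, 76.1 and 42.3 in ES cells. The groups overlapped for both. Of the 10 pore-forming alpha1 genes, 7 were above the median on no array. Cacna1c, the L-type channel of heart and brain, had 36.7, 29.2 and 38.6 in fPS cells and 33.7, 40.1 and 23.5 in ES cells.

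Cacna1b, the N-type channel of nerve endings, had 32.4, 19.0 and 11.2 in fPS cells and 33.9, 48.4 and 46.3 in ES cells. Each fPS value was lower than each ES value, with fPS replicate 1 and ES replicate 1 close together (log2 change -0.70, SE 0.260, limma adjusted p = 0.24). Cacna2d1, an extracellular subunit that raises channel number at the surface, had 38.2, 29.7 and 28.5 in fPS cells and 21.3, 14.9 and 2.95 in ES cells, the reverse order (log2 change 0.78, SE 0.278, limma adjusted p = 0.226). HCN genes numbered 3. Hcn2 was above the median on all 6 arrays with 72.6, 88.8 and 58.1 in fPS cells and 74.7, 76.5 and 74.5 in ES cells. Hcn3 had 45.9, 41.2 and 35.5 in fPS cells and 35.9, 25.6 and 23.9 in ES cells. Hcn4, the main pacemaker channel of the heart, had at most 8.01.

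**Figure D3:**
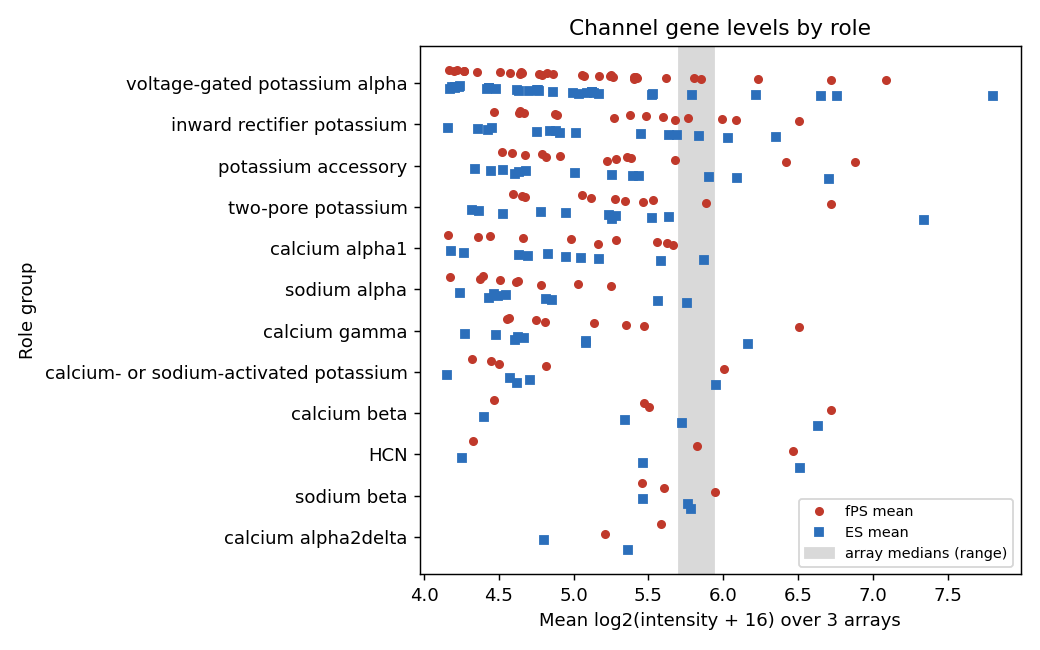
Mean log2(intensity + 16) of each channel gene over 3 fPS arrays (circles, upper) and 3 ES arrays (squares, lower), by role group, with the range of the array medians in grey. In every group most genes lie left of the band or within it, and the brightest point is Kcns3 in ES cells.

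Near the bound, the genes just above the median by their closest array were Kcnmb4, Cacng2 and Kcnd1, with smallest margins of 0.12, 0.12 and 0.24 on the log2 scale. Of the genes not above it on every array, Scn3b, Kcnj11 and Kcnj14 had the lowest margins nearest to the bound, -0.19, -0.20 and -0.21. These are the margins on the array where each gene was furthest below. The 3 genes were above the median on 4, 5 and 3 arrays.

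In the comparison of fPS with ES cells, 0 of 114 channel genes passed limma at an adjusted p of 0.05, against 0.858% of all 14217 genes, 0.57% higher and 0.288% lower. With so small a share over all genes, a count of 0 among 114 is near the background and is no result about them. The lowest adjusted p of the set was 0.144. At an unadjusted p under 0.05 there were 7 channel genes higher (6.14%), against 8.59% of all genes, and 6 lower (5.26%), against 8.88%. All 3 fPS values lay above all 3 ES values in 7 genes (6.14%), against 11.3% of all genes, and below in 8 (7.02%), also against 11.3%. The 7 were Cacna2d1, Kcne3, Kcnj8, Kcna2, Kcnk4, Kcnj9 and Kcna6. The 8 were Kcng3, Scn11a, Kcns3, Cacna1b, Kcnab3, Kcnj14, Kcnk6 and Kcnd1. Of these 15, 3 were among the 9 above the median on all 6 arrays (Kcns3, Kcnk6 and Kcnd1, each lower in fPS cells). The matching share over all genes above the median was not counted, so this is no result about direction. The second probe set of Kcnk6 had overlapping groups.

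The sizes were small on the log2(intensity + 16) scale, which understates the change of dim genes. The smallest log2 change that passed among all genes was 1.18 in size, and the largest of the channel genes was 0.82. The 95% interval lay within -1 to 1 for 79 channel genes (69.3%), against 62.3% of all genes, and for the other 35 a change of 2-fold on this scale was within the interval. The median SE was 0.269 for channel genes and 0.256 for all genes.

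**Figure D4:**
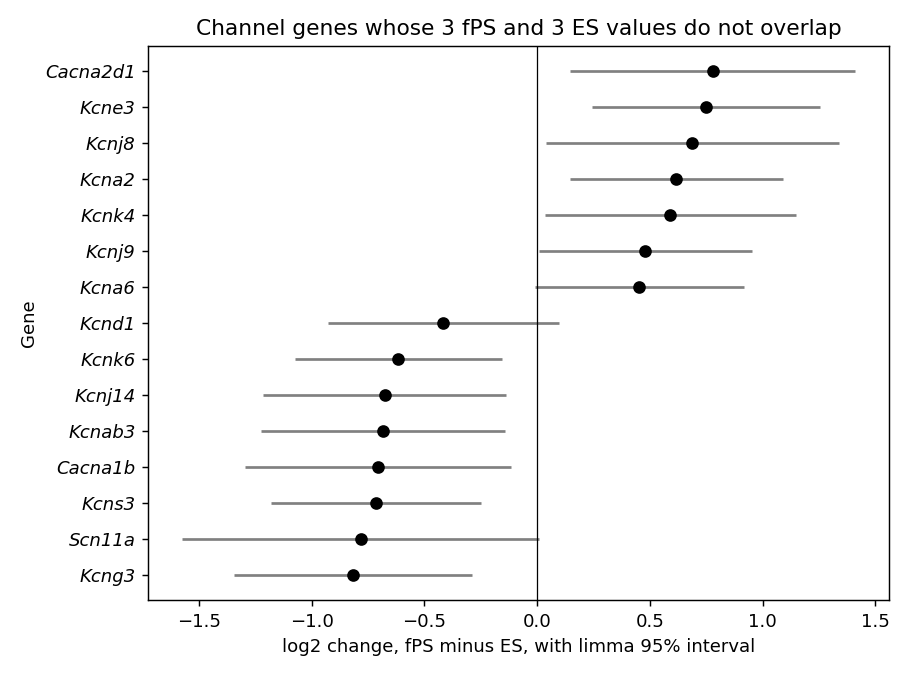
Log2 change, fPS minus ES, with limma's 95% interval for the 15 channel genes whose 3 fPS and 3 ES values do not overlap. The points run from -0.82 (Kcng3) to 0.78 (Cacna2d1), and none passed the test.

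**Figure D5:**
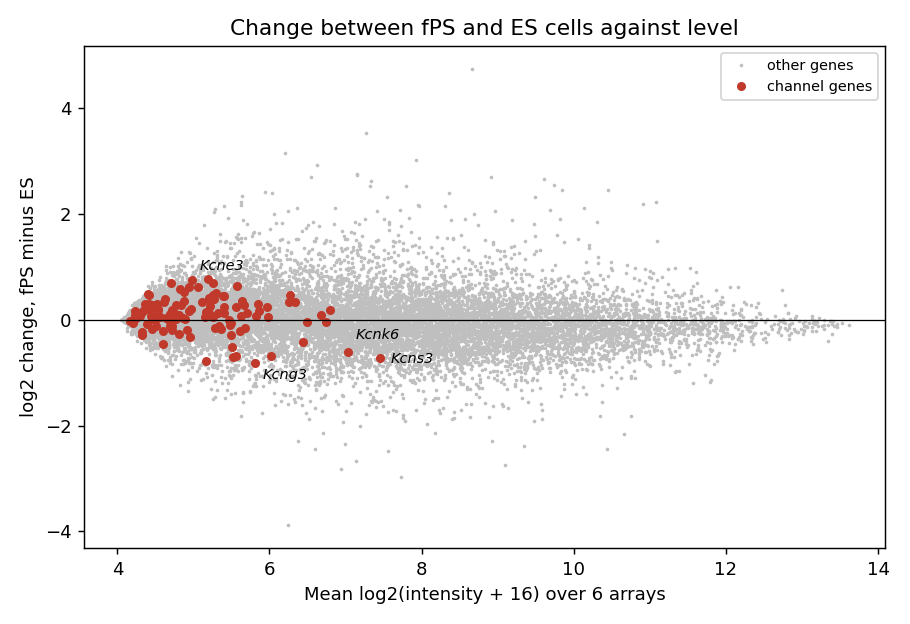
Log2 change, fPS minus ES, against mean log2(intensity + 16) for 14217 genes, channel genes in red. The channel genes sit at the dim end, with changes between -0.82 and 0.78, inside the spread of the other genes at the same levels.

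More channel genes had a positive than a negative log2 change, 78 of 114 (68.4%), against 50% of all genes, with medians of 0.09 and 0.00. This balance was smaller without either of 2 single arrays. The lowest of the 6 values was on ES replicate 3 for 51 channel genes (44.7%), against 20.5% of all genes, and the highest was on fPS replicate 1 for 37 (32.5%), against 21.2%. ES replicate 3 also had the lowest 25th percentile of the 6 arrays, 9.50, against 11.9 to 15.2 on the others, and fPS replicate 1 the highest. Without ES replicate 3, 54.4% of the channel genes were positive, against 51.4% of all genes, and without fPS replicate 1 52.6%, against 45.6%. Without any other single array 63.2% to 66.7% were positive, against 49% to 55.2% of all genes, and without replicate 3 of both groups 62.3%, against 57%. After quantile normalization the shares were 54.4% and 51.6%, and with each array centred on its median 57% and 43.5%. Among all 3770 genes at or below the median on 6 arrays 62.3% were positive, and among the 73 such channel genes 75.3%.

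Genes that work with these channels in ion handling, a list chosen for function, held 43 measured genes of 48. Of these 0 passed limma in either direction, against 0.858% of all genes. An unadjusted p under 0.05 was found for 10 (23.3%), against 17.5% of all genes, and 16 (37.2%) were above the median on all 6 arrays, against 55%. The brightest were Calm2, one of the genes for the calcium sensor calmodulin, the calcium pump Atp2a2 and the sodium pump subunit Atp1b1. Calm2 had 7259, 7578 and 7205 in fPS cells and 6885, 7474 and 8585 in ES cells. Atp2a2 had 2076, 2171 and 1569 in fPS cells and 1277, 1254 and 2358 in ES cells. Atp1b1 had 1894, 1823 and 1833 in fPS cells and 990, 1284 and 2141 in ES cells. Their groups overlapped. Intensities of different probe sets are not levels per length, so the distance to the channel genes is one of signal.

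Markers of the cells that the cultures could hold were read beside these values. All 9 measured pluripotency markers of 14 listed were above the median on all 6 arrays, and Pou5f1 and Nanog were not analysed here. None of the 9 passed limma, and their median log2 change was -0.15. An unadjusted limma p under 0.05 was found for 2 (22.2%), against 17.5% of all genes. These were Lin28a and Sox2 (log2 changes -1.30 and -0.97), with every fPS value below every ES value. Of the rest, Klf5, Tfcp2l1 and Epcam were positive (0.32, 0.05 and 0.03), and Klf2, Klf4, Esrrb and Sall4 negative. Of 12 neuron markers 3 were above the array median on all 6 arrays and 4 on none. The 4 were Dcx, Snap25, Syt1 and Map2. The summed intensity of the 12 was 1537 to 2486 in fPS cells and 3285 to 4068 in ES cells. Most of it came from Stmn2, Tubb3 and Nefl. The median log2 change of the 12 was 0.01, and none passed limma. Nefl, Tubb3, Stmn2, Map2, Elavl3 and Dcx were negative (-2.49, -1.05, -0.80, -0.45, -0.01 and -0.01). Syn1, Gap43, Nefm, Syt1, Elavl4 and Snap25 were positive (0.56, 0.32, 0.29, 0.27, 0.12 and 0.02). Of 9 measured cardiac markers, 1 was above the array median on all 6 arrays. Their sums were 324 to 380 in fPS cells and 104 to 147 in ES cells, and the median log2 change of the 9 was 0.57. Of the 9, 1 passed limma, against 0.858% of all genes. Pln, a regulator of the calcium pump, was read on the brightest of its 3 probe sets, and the others are not reported here. It had 109.7, 176 and 199 in fPS cells and 49.8, 44.8 and 48.1 in ES cells. The log2 change of 1.45 (SE 0.247) passed narrowly (limma adjusted p = 0.0449). The call was lost in 12 of 17 alternatives, added after seeing the data, among them 5 of the 6 that leave out 1 array and the replicate block (adjusted p = 0.0705), and the adjusted p ran from 0.00913 to 0.218. Tnnt2, the cardiac troponin T of the contractile filament, was read on the brighter of its 2 probe sets. It had 49.3, 69.1 and 51.9 in fPS cells and 2.11, 13.1 and 16.2 in ES cells. It was higher on every fPS array, with a log2 change of 1.49 (SE 0.267) that just missed the threshold (limma adjusted p = 0.0504). Tnnt2 passed in 4 of 16 alternatives, also added after seeing the data, with a limma adjusted p from 0.0147 to 0.231. Ryr2, the calcium release channel of the heart, was also higher on every fPS array (log2 change 0.57, limma adjusted p = 0.313), and Nppa, an atrial hormone, had 0.72 with overlap (limma adjusted p = 0.379). Myh6 and Tnni3 went slightly the other way, with log2 changes of -0.01 and -0.07 and overlap. Myl7, Myh7 and Myl2 were positive (0.62, 0.56 and 0.12). Myh7, Myl2 and Tnni3 had at most 18.6 on any array. Of 19 fibroblast markers 5 were above the median on all 6 arrays, with sums of 3304 to 3892 in fPS cells and 2556 to 3721 in ES cells. None passed, and 4 (21.1%) had an unadjusted limma p under 0.05, against 17.5% of all genes. Mmp2, Postn and Pdgfra were higher in fPS cells (log2 changes 1.37, 1.20 and 1.12), the first 2 without overlap, and Col5a1 was lower (-0.63). Timp1, a secreted protease inhibitor, made up the larger part on most arrays, with 2080, 2358 and 1404 in fPS cells and 2106, 1722 and 590 in ES cells. The collagen genes Col1a2 and Col5a2 were far higher on replicate 3 of each group than on its other arrays. Col1a2 had 126, 112 and 541 in fPS cells and 4.03, 53.1 and 712 in ES cells, and Col5a2 had 104.6, 111.7 and 487 in fPS cells and 16.9, 68.5 and 765 in ES cells. ES replicate 3 is also the array on which the channel genes were most often lowest, 51 of them (44.7%), against 20.5% of all genes. On fPS replicate 3, also high in these collagens, 18 were lowest, as on ES replicate 1. The matching shares over all genes were not counted for these arrays, and a link with the collagens was not tested. The part of other cells in the channel values was not tested, and in bulk samples fewer cells of a type cannot be told apart from less RNA per cell.

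More than 1 probe set named 42 of the 114 genes, and for 22 of the 42 the log2 changes differed in sign between probe sets. None of the 181 probe sets passed. Of the probe sets that had not been chosen, 1 was above the median on all 6 arrays, the second of Kcnk6. Of the 15 genes whose groups did not overlap, 5 had further probe sets, 6 in all (Kcne3, Kcna2, Kcna6, Cacna1b and Kcnk6), and the groups overlapped on each of the 6. For 11 genes the chosen probe set carries a suffix that the maker uses where probes may match several transcripts or genes.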

How the data were processed

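Values were the deposited linear intensities, 1 per probe set and array. How the authors summarised probes, corrected background and scaled arrays is not given in the sources used here. There were 0 other columns per sample and so no detection calls to use. Of the probe sets 57 controls were left out and 31042 tested; 20826 had 1 symbol in the platform's annotation, 436 several and 9780 none. All 114 members were found by gene ID in RefSeq's table for GRCr8, with 0 symbols changed.

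Log2(intensity + 16) was fitted with limma 3.58.1 (lmFit, eBayes) in R 4.3.3 on all 6 arrays with group as the only term, with Benjamini-Hochberg adjustment over 31042 probe sets. Simulated data served to check the fit. With 3 arrays a group, an exact permutation test of 1 value cannot go below 0.1, so none is given. Promoter letters were counted in Python 3.11.15, and figures drawn with matplotlib 3.10.9. The number of arrays limits the precision.

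The members and lists were chosen with earlier results of these data known. The rule for names took, in each role group, the 3 brightest genes and the 2 of lowest p. It also took the 3 genes either side of the bound by their lowest margin, and the partners past the threshold or among the 3 brightest. Other names (the non-overlapping genes, those above the median, Kcnh6, Kcnd3, Kcna2, Rest and the markers) were chosen after their values were seen.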

Additional observations from a re-analysis of the deposited data

How the results depend on the processing

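No channel gene passed limma under any of the 17 alternatives (lowest adjusted p 0.0749, for Kcng3 without the dimmest 50% of probe sets, which left 17 of the genes). For 16 genes with separate groups or an unadjusted p under 0.05, all 257 recomputed log2 changes kept their sign and missed the threshold. These genes were picked from the same values, and separate groups keep their sign when arrays are left out or the pseudocount changes. The agreement in sign was thus largely fixed in advance. The count above the bound was 1, in place of 9, with the median taken over the genes' chosen probe sets, and 0 with the 75th percentile; without single arrays it ran from 9 to 11. The median log2 change was 0.27 with a pseudocount of 1 and 0.09 with 16; without single arrays it ran from 0.014 to 0.18. Partner calls were 1 with trend and robust settings and without the dimmest 30% (Ank3, lower), and 2 without the dimmest 50% (Ank3 lower, Stim1 higher), where fewer probe sets were tested; elsewhere the cause was not tested. Over all genes the count of calls was 122, with 0 without ES replicate 1, without fPS replicate 2, without replicate 3 of both groups or with a pseudocount of 1, 1 to 91 without any other single array, 26 with a pseudocount of 64 and 64 with the block. It was 177 with the mean over probe sets, 155 without probe sets of shared suffix, 180 after quantile normalization, 203 after median centring, 358 with trend and robust settings, and 416 and 506 without the dimmest 30% and 50%. Deviations of same-numbered arrays correlated at 0.15, 0.020 and 0.075, and those of arrays with different numbers at -0.145 to 0.054. These values do not settle whether the numbers mark pairs, and the main fit did not use them. With the replicate number as a block 0 channel genes and 0 partners passed, and the median was unchanged at 0.09. Dim signal limits most of these values.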
